A study of Mus musculus with 9 samples.

Results

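Interferon beta, interferon gamma, the receptor chains that bind them and the Janus kinases that pass on their signal were read by 17 of the 45101 probe sets on the array, which stood for 9 of the 18193 genes that a probe set names singly. Members were all probe sets whose only gene symbol in the platform annotation was Ifnb1, Ifng, Ifnar1, Ifnar2, Ifngr1, Ifngr2, Jak1, Jak2 or Tyk2, a choice by name and not by value. The tissue came from the injected brains of adult, immunocompetent male BALB/c mice, 3 mice and 3 arrays per group. Mice of the HS and MC+HS groups carried BV-HSVtk, a baculoviral (insect virus) vector, given into the striatum at 100000000 particles in 10 µL per side. The HS vector had been purified with high-speed centrifugation only, and the MC+HS vector with membrane chromatography as well. Mock mice received virus-free Sf9 insect cell medium taken through the MC+HS procedure, so the mock arm matched the MC+HS preparation and not the HS one. All tissue was taken 2 days after injection, and no earlier time was sampled.

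Interferons are secreted cytokines. Type I interferons, which are interferon beta and the interferon alphas, bind the receptor made of Ifnar1 and Ifnar2, to which the kinases Tyk2 and Jak1 are attached. Interferon gamma, made mainly by natural killer and T cells, binds Ifngr1 and Ifngr2, to which Jak1 and Jak2 are attached. The kinases phosphorylate STAT proteins, which enter the nucleus and switch on target genes through short DNA elements, the interferon-stimulated response element (ISRE) and the gamma-activated site (GAS). Receptors and kinases are made constitutively by most cells, brain cells included, and the ligands are made in bursts after a virus is sensed.

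The 250 bases before the transcription start are printed for both ligands, for the receptor chains with a probe set that passed a test in any fit below, and, for comparison, for the target genes Oas3 and Gbp7. Sequences are those of RefSeq on build GRCm38.p6, written 5′ to 3′ on the gene's strand, and capitals mark a match to the ISRE letters GAAANNGAAA, searched on both strands, or the GAS letters TTCNNNGAA, which read the same on either strand. Positions are counted back from the transcription start, with -1 the base before it. The windows lie at chr4:88522795-88523044 (minus strand) for Ifnb1, chr10:118440796-118441045 (plus strand) for Ifng, chr10:19591699-19591948 (plus strand) for Ifngr1, chr16:91372533-91372782 (plus strand) for Ifnar2, chr5:120777660-120777909 (minus strand) for Oas3 and chr3:142530086-142530335 (plus strand) for Gbp7.
Ifnb1: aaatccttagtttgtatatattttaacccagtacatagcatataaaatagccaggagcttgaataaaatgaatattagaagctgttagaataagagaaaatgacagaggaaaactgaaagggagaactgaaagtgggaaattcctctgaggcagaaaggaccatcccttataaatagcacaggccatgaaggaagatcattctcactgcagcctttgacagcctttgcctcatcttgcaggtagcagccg
Ifng: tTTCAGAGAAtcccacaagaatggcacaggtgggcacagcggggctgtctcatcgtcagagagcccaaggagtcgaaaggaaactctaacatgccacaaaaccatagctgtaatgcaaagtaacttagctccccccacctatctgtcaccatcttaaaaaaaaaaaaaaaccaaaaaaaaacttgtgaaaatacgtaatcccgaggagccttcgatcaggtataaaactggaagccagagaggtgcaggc
Ifngr1: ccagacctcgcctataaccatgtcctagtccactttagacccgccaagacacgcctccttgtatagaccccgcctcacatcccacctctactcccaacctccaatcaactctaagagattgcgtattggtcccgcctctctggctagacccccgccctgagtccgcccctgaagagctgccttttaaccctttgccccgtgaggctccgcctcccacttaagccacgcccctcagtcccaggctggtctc
Ifnar2: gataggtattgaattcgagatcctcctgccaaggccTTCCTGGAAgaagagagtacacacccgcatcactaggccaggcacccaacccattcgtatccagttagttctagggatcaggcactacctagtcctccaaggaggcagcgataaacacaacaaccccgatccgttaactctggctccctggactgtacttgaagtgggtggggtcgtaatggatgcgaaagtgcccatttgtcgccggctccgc
Oas3: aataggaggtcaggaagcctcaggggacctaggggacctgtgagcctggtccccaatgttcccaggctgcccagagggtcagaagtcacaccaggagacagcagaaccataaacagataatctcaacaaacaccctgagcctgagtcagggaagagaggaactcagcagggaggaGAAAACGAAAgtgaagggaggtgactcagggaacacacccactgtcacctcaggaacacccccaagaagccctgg
Gbp7: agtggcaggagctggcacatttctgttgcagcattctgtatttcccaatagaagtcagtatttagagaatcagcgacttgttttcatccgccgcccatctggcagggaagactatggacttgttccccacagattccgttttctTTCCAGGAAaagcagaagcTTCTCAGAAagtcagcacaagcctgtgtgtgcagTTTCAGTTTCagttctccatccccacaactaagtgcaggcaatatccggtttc

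In these windows Oas3 held an ISRE match at -75 to -66. Gbp7 held GAS matches at -106 to -98 and at -87 to -79 and an ISRE match at -53 to -44. Of the 9 member genes, 0 held the ISRE letters, and 2 held the GAS letters, Ifnar2 at -214 to -206 and Ifng at -249 to -241. Among all 27025 genes with a promoter in the RefSeq table, 3.46% held the ISRE letters and 8.13% the GAS letters; of all 32851 promoters the shares were 2.98% and 7.02%. Among the type I interferon targets with a promoter, 9 of 23 held ISRE letters and 5 held GAS letters. Among the interferon gamma targets, 8 of 16 held ISRE letters and 6 held GAS letters. A match describes the letters in this window and not a bound site, and a missing match says only that these letters were not there.

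One array stood apart. HS replicate 1 had a median correlation of 0.805 with the other arrays, against 0.972 to 0.982 for the rest, and its log2 signals spread less, with an SD of 1.54 against 2.17 to 2.39. Median signals ran from 147 to 263 intensity units, highest on HS replicate 3. Markers of striatal medium spiny neurons, the main neurons of the labelled tissue, were above background on all 9 arrays in 6 of 6 cases, with a summed signal of 5167 on HS replicate 1 and 16139 to 22827 elsewhere. Mock replicate 2 had higher interferon targets than the other mock arrays: the mean centred log2 signal of 30 type I targets was 9.03 there, against 7.64 and 7.70. Differences of the members from mock are therefore given with all 9 arrays and without HS replicate 1.

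Neither interferon gamma nor any of the 7 interferon alpha-type genes read here was above background on any array 2 days after injection, and interferon beta was above it on 2 of 9 arrays, both in the HS group. No detection calls were used, so background on each array was the 95th percentile of 84 probe sets of odorant, vomeronasal and taste receptor genes, which ran from 88.15 to 129.7 intensity units on 8 arrays and was 256.2 on HS replicate 1.

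Ifnb1 (probe set 1422305_at), the first type I interferon made by most infected cells, had deposited signals of 66.0, 101 and 86.7 on mock replicates 1 to 3. Its signals were 27.9, 120 and 198 in HS and 71.9, 113 and 89.5 in MC+HS. Background on the same arrays was 102.2, 101.3 and 111.6 in mock, 256.2, 88.15 and 129.7 in HS, and 91.19, 113.3 and 123.5 in MC+HS. Ifnb1 thus exceeded background on HS replicates 2 and 3 only, and on mock replicate 2 and MC+HS replicate 2 it lay just below the level. The count depended on the level chosen: 5 of 9 arrays exceeded the 90th percentile of the same receptor probe sets, 1 of them a mock array, and 3 of 9 exceeded the array's own 40th percentile. Those 3 were HS replicates 2 and 3 and MC+HS replicate 2, all vector arrays. Through them alone Ifnb1 passed the filter on dim signals, which asks for at least 3 arrays above that percentile. The tests of Ifnb1 were thus not chosen independently of the groups. After centring each array on a common median, Ifnb1 differed by -0.18 ± 0.39 (log2, SE) in HS against mock, with adjusted p = 0.828, and by 0.07 ± 0.39 in MC+HS, with adjusted p = 1, or 0.07 ± 0.18 without HS replicate 1, with adjusted p = 0.918. When HS replicate 1 was left out, the HS difference was 0.34 ± 0.20, with adjusted p = 0.503. Both remaining HS arrays, at 6.92 and 7.08, lay above the mock range of 6.48 to 6.76.

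Ifng (1425947_at) had signals of 12.9, 6.26 and 4.34 in mock, 51.9, 34.9 and 62.6 in HS, and 16.4, 27.9 and 11 in MC+HS. All 9 values were below background, also under both other levels tried, and the probe set did not pass the filter on dim signals. On the centred log2 scale the HS arrays, at 5.50 to 6.08, did not overlap the mock arrays, at 4.36 to 4.98, while MC+HS, at 4.77 to 5.32, overlapped mock. In a fit without the filter the difference from mock was 1.16 ± 0.31 in HS, with adjusted p = 0.345, and 0.987 ± 0.274 without HS replicate 1, with adjusted p = 0.132. In MC+HS it was 0.49 ± 0.31, with adjusted p = 1, or 0.514 without that array. A difference between signals that are all below background has no measured level under it.

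**Figure D1:**
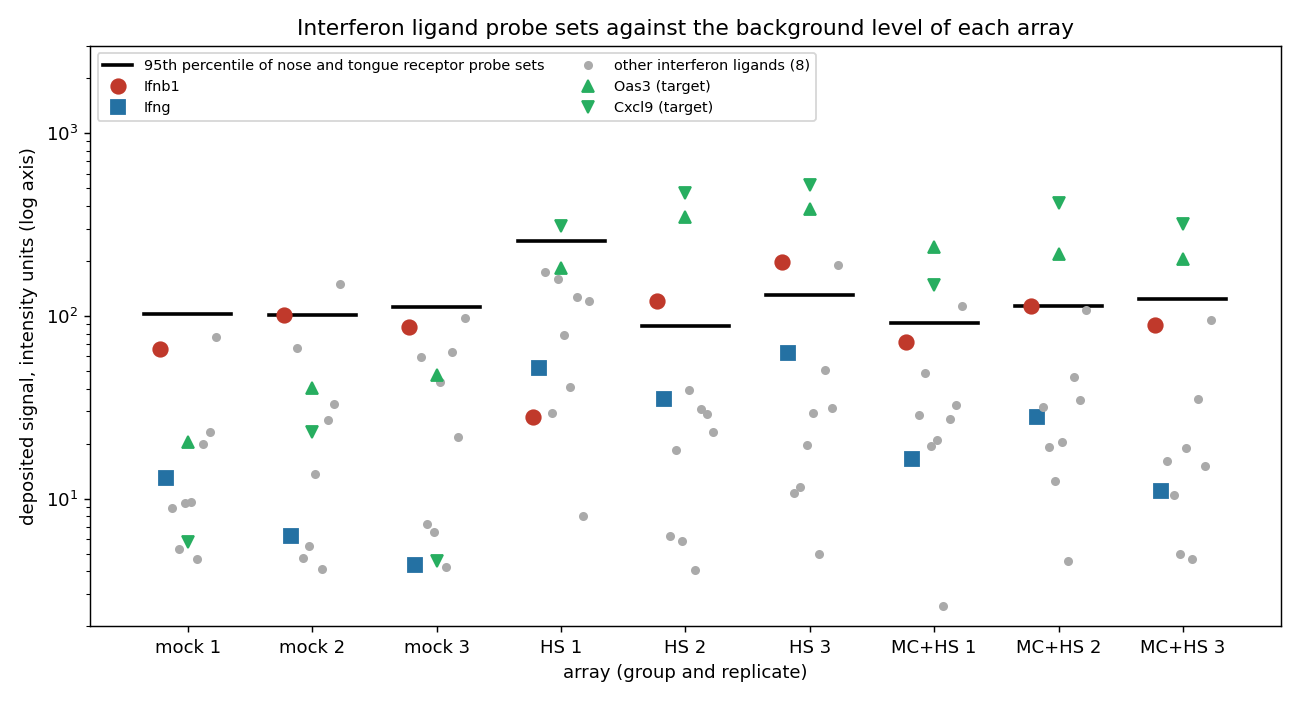
Deposited signal (intensity units, log axis) of 10 interferon ligand probe sets on each of 9 arrays, with the background level of each array as a black bar and 2 target genes, Oas3 and Cxcl9, as triangles. Ifng lies below the bar on all 9 arrays and Ifnb1 above it on HS replicates 2 and 3, while Oas3 and Cxcl9 lie below the bar on the 3 mock arrays and Cxcl9 above it on all 6 vector arrays.

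Of the 19 other type I and III ligands listed, 8 had a probe set with a single symbol. Ifna1, Ifna2, Ifna4, Ifna5, Ifna9, Ifna11 and Ifnab were above background on 0 of 9 arrays. For 5 of these 7 the highest value stood on HS replicate 1, with Ifna1 at 173 and Ifna4 at 159 units against a background of 256.2 there. Ifna1, Ifna4 and Ifna11 exceeded that array's 40th percentile and no other array's. Ifnz, a limitin-type interferon gene, was above background on mock replicate 2, HS replicate 3 and MC+HS replicate 1, so on 1 array of each group. It was the only one of these 8 to pass the filter, and its difference from mock was -0.52 ± 0.48 in HS (adjusted p = 0.642) and -0.01 ± 0.48 in MC+HS (adjusted p = 1). The interferon alpha genes are near-identical copies, and their probe sets may bind transcripts of several of them.

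**Figure D2:**
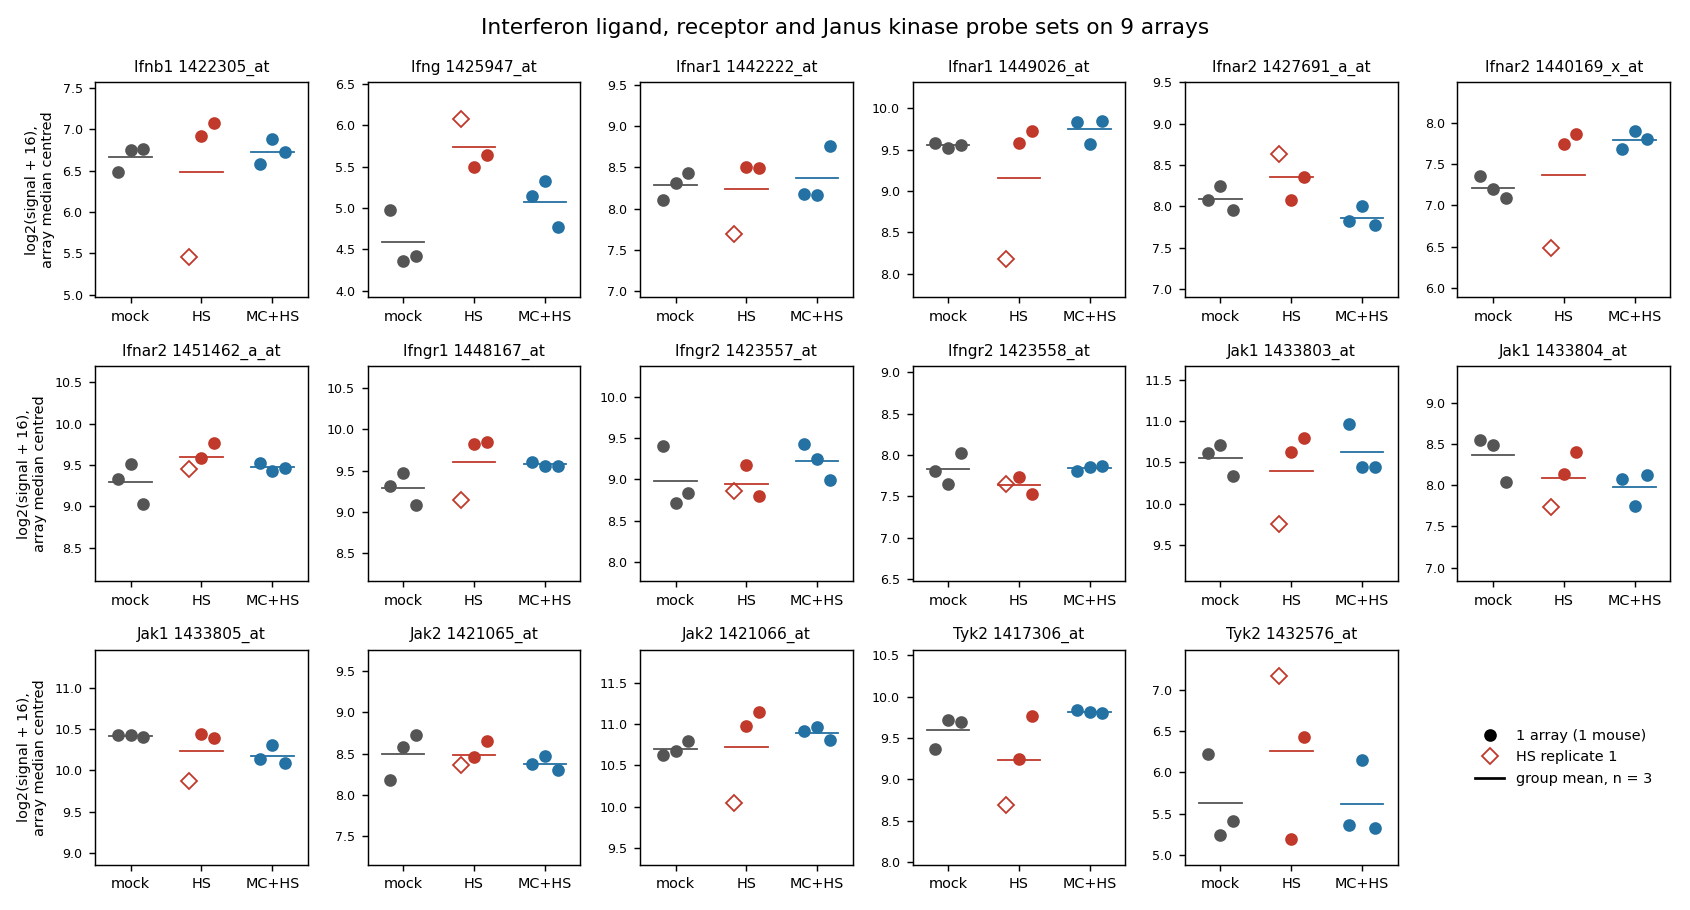
Centred log2(signal + 16) of the 17 member probe sets, 1 panel each, with 3 arrays per group and a line at each group's mean; the open diamond is HS replicate 1. The diamond lies lowest of the 9 arrays for both Ifnar1 probe sets, and for Ifnar2 1440169_x_at, Ifngr1 1448167_at and Jak2 1421066_at the other 5 vector arrays lie above all 3 mock arrays.

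No receptor chain or kinase passed the test with all arrays given equal weight. With array quality weights, Ifngr1, Ifnar2 1440169_x_at and Jak2 1421066_at passed in HS, and Ifnar2 1440169_x_at in MC+HS. Far more of all probe sets also passed under these weights, and both counts are given with the processing settings below. Of 17 member probe sets 15 passed the filter, Ifnb1 through vector arrays only. With all 9 arrays weighted equally 0 of 15 passed the limma test in HS against mock, where 0.775% of all 28257 probe sets did. The count was also 0 in MC+HS against mock, beside 0.58% of all probe sets, and 0 in MC+HS against HS, beside 0%. At an unadjusted p under 0.05 the counts were 0, 0 and 1 of 15, beside 1886, 1383 and 847 of all 28257 probe sets. The median difference of the 15 was -0.05 in HS and 0.09 in MC+HS, against -0.21 and -0.02 over all probe sets. The members' 95% confidence intervals reached a median of 0.603 log2 units to either side. These intervals are not adjusted for the number of probe sets tested, whereas a call needed an adjusted p under 0.05. Differences smaller than 0.603 were mostly not detectable with 3 mice per group, and larger ones could be missed too. Because this is bulk tissue, fewer cells of a type and less RNA per cell cannot be told apart in any of these values.

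Ifnar1 encodes the receptor chain that holds Tyk2. Its probe set 1449026_at read 9.58, 9.52 and 9.56 on the centred log2 scale in mock, 8.18, 9.58 and 9.73 in HS, and 9.84, 9.57 and 9.85 in MC+HS. The mock arrays lay close together, the MC+HS arrays started inside that range, and HS replicate 1 alone was far below. The difference from mock was -0.39 ± 0.37 in HS (adjusted p = 0.647), or 0.10 ± 0.12 without HS replicate 1 (adjusted p = 0.76), so its sign rested on that array. In MC+HS it was 0.20 ± 0.37 (adjusted p = 1), or 0.20 ± 0.11 without that array (adjusted p = 0.433). The other probe set, 1442222_at, read 8.11, 8.31 and 8.43 in mock, 7.70, 8.51 and 8.49 in HS, and 8.18, 8.17 and 8.76 in MC+HS. With all arrays its groups overlapped, and its differences were -0.05 ± 0.26 in HS (adjusted p = 0.927) and 0.09 ± 0.26 in MC+HS (adjusted p = 1). HS replicates 2 and 3 lay above all mock arrays, so the overlap and the sign in HS rested on HS replicate 1, and without it the difference was 0.22 ± 0.18 (adjusted p = 0.656), with 0.09 ± 0.16 in MC+HS (adjusted p = 0.876).

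Ifnar2 encodes the chain that holds Jak1 and binds type I interferons with higher affinity, and it was read by 3 probe sets that disagreed. Probe set 1440169_x_at read 7.36, 7.20 and 7.09 in mock, 6.48, 7.74 and 7.87 in HS, and 7.68, 7.90 and 7.80 in MC+HS. Every vector array except HS replicate 1 lay above the mock range. With all arrays the differences were 0.14 ± 0.33 in HS (adjusted p = 0.83) and 0.58 ± 0.33 in MC+HS (adjusted p = 1). Leaving out HS replicate 1, the MC+HS difference was the same 0.58 with a smaller error of 0.13, a 1.49-fold rise with a 95% interval of 0.28 to 0.87 log2 units that passed the test (adjusted p = 0.043). The HS difference was then 0.59 ± 0.15, which did not pass (adjusted p = 0.0662). The maker's suffix _x_at marks a set whose probes may also bind other transcripts.

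The remaining Ifnar2 probe sets carry the suffix _a_at, for probes shared by transcripts of the same gene. Probe set 1451462_a_at read 9.33, 9.51 and 9.03 in mock, 9.45, 9.58 and 9.76 in HS, and 9.52, 9.43 and 9.46 in MC+HS. Probe set 1427691_a_at read 8.08, 8.25 and 7.95 in mock, 8.63, 8.08 and 8.36 in HS, and 7.82, 8.0 and 7.77 in MC+HS. Neither separated both vector groups from mock. With all arrays 1451462_a_at differed by 0.30 ± 0.19 in HS and 0.18 ± 0.19 in MC+HS, and 1427691_a_at by 0.26 ± 0.17 and -0.24 ± 0.17, with adjusted p = 0.635 in HS and 1 in MC+HS for both. In the fit on 8 arrays, without HS replicate 1, 1451462_a_at differed by 0.38 ± 0.14 in HS (adjusted p = 0.241) and 0.18 ± 0.13 in MC+HS (adjusted p = 0.592), and 1427691_a_at by 0.12 ± 0.15 (adjusted p = 0.771) and -0.24 ± 0.13 (adjusted p = 0.48). The MC+HS arrays of 1427691_a_at lay below all HS arrays, with a difference of -0.50 ± 0.17 for all arrays (adjusted p = 0.728) and -0.36 ± 0.15 without HS replicate 1 (adjusted p = 0.613), and with all arrays this was the 1 member difference with an unadjusted p under 0.05 in MC+HS against HS.

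Ifngr1 encodes the ligand-binding chain of the interferon gamma receptor. Its probe set 1448167_at read 9.32, 9.47 and 9.08 in mock, 9.15, 9.82 and 9.85 in HS, and 9.61, 9.56 and 9.56 in MC+HS. The MC+HS arrays and HS replicates 2 and 3 lay above all mock arrays, and HS replicate 1 lay inside the mock range. With all arrays the differences were 0.32 ± 0.23 in HS (adjusted p = 0.635) and 0.29 ± 0.23 in MC+HS (adjusted p = 1). Without HS replicate 1 Ifngr1 rose in HS by 0.54 ± 0.12, which is 1.46-fold with a 95% interval of 0.27 to 0.81 log2 units (adjusted p = 0.0366). The MC+HS difference of 0.29 ± 0.11 did not pass (adjusted p = 0.245), and the difference between the vector groups, -0.26 ± 0.12, did not pass either (adjusted p = 0.676).

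Ifngr2 encodes the chain that brings Jak2 to the interferon gamma receptor. Probe set 1423557_at read 9.40, 8.71 and 8.83 in mock, 8.86, 9.17 and 8.80 in HS, and 9.43, 9.25 and 8.99 in MC+HS. Probe set 1423558_at read 7.81, 7.65 and 8.02 in mock, 7.65, 7.73 and 7.53 in HS, and 7.81, 7.86 and 7.87 in MC+HS. Both overlapped between each vector group and mock. Differences ran from -0.19 ± 0.14 to 0.24 ± 0.23 with all arrays and from -0.20 ± 0.15 to 0.24 ± 0.19 without HS replicate 1, and none passed with or without HS replicate 1.

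Jak1 serves both receptor types. Its probe set 1433803_at read 10.62, 10.71 and 10.34 in mock, 9.76, 10.63 and 10.80 in HS, and 10.97, 10.45 and 10.45 in MC+HS. Its difference in HS was -0.17 ± 0.32 with all arrays (adjusted p = 0.803) and 0.15 ± 0.17 without HS replicate 1 (adjusted p = 0.751), so its sign rested on that array. In MC+HS it was 0.07 ± 0.32 (adjusted p = 1) and 0.07 ± 0.15 (adjusted p = 0.9). Probe set 1433805_at read 10.43, 10.43 and 10.40 in mock, 9.87, 10.44 and 10.39 in HS, and 10.13, 10.31 and 10.09 in MC+HS. The MC+HS arrays of 1433805_at all lay below mock, with a difference of -0.25 ± 0.23 with all arrays (adjusted p = 1) and -0.25 ± 0.09 without HS replicate 1 (adjusted p = 0.227). In HS they were -0.19 ± 0.23 (adjusted p = 0.7) and -0.005 ± 0.10 (adjusted p = 0.989). Probe set 1433804_at read 8.55, 8.49 and 8.04 in mock, 7.73, 8.14 and 8.40 in HS, and 8.08, 7.75 and 8.12 in MC+HS, with a MC+HS difference of -0.38 ± 0.22 (adjusted p = 1), or -0.38 ± 0.16 without HS replicate 1 (adjusted p = 0.321). Its HS difference was -0.27 ± 0.22 (adjusted p = 0.635), or -0.09 ± 0.18 without that array (adjusted p = 0.875). None of the 3 Jak1 probe sets passed in either vector group in these fits.

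Jak2 serves the interferon gamma receptor and many other cytokine receptors. Probe set 1421066_at read 10.62, 10.67 and 10.79 in mock, 10.04, 10.98 and 11.15 in HS, and 10.92, 10.96 and 10.80 in MC+HS. Every vector array except HS replicate 1 was above every mock array, if barely. With all arrays the differences were 0.03 ± 0.31 in HS (adjusted p = 0.963) and 0.20 ± 0.31 in MC+HS (adjusted p = 1), so the HS value rested on that array. Without it they were 0.37 ± 0.10 in HS (adjusted p = 0.0933) and 0.20 ± 0.09 in MC+HS (adjusted p = 0.358). Probe set 1421065_at read 8.18, 8.58 and 8.73 in mock, 8.36, 8.46 and 8.65 in HS, and 8.37, 8.47 and 8.30 in MC+HS, and its groups overlapped throughout. Its differences were -0.005 ± 0.17 in HS and -0.12 ± 0.17 in MC+HS with all arrays, and 0.06 ± 0.16 and -0.12 ± 0.15 without HS replicate 1, none of which passed.

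Tyk2 is the kinase on Ifnar1. Probe set 1417306_at read 9.37, 9.72 and 9.69 in mock, 8.69, 9.25 and 9.77 in HS, and 9.84, 9.82 and 9.80 in MC+HS. The MC+HS arrays lay above both other groups, by 0.23 ± 0.27 over mock (adjusted p = 1) and 0.58 ± 0.27 over HS (adjusted p = 0.728). On the 8 arrays left without HS replicate 1 those differences were 0.23 ± 0.14 (adjusted p = 0.543) and 0.31 ± 0.16 (adjusted p = 0.707). HS against mock was -0.35 ± 0.27 (adjusted p = 0.635), or -0.08 ± 0.16 without that array (adjusted p = 0.874). The other Tyk2 probe set, 1432576_at, had signals of 21.7 to 128 units, above the filter level on too few arrays to be tested, and its groups overlapped.

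**Figure D3:**
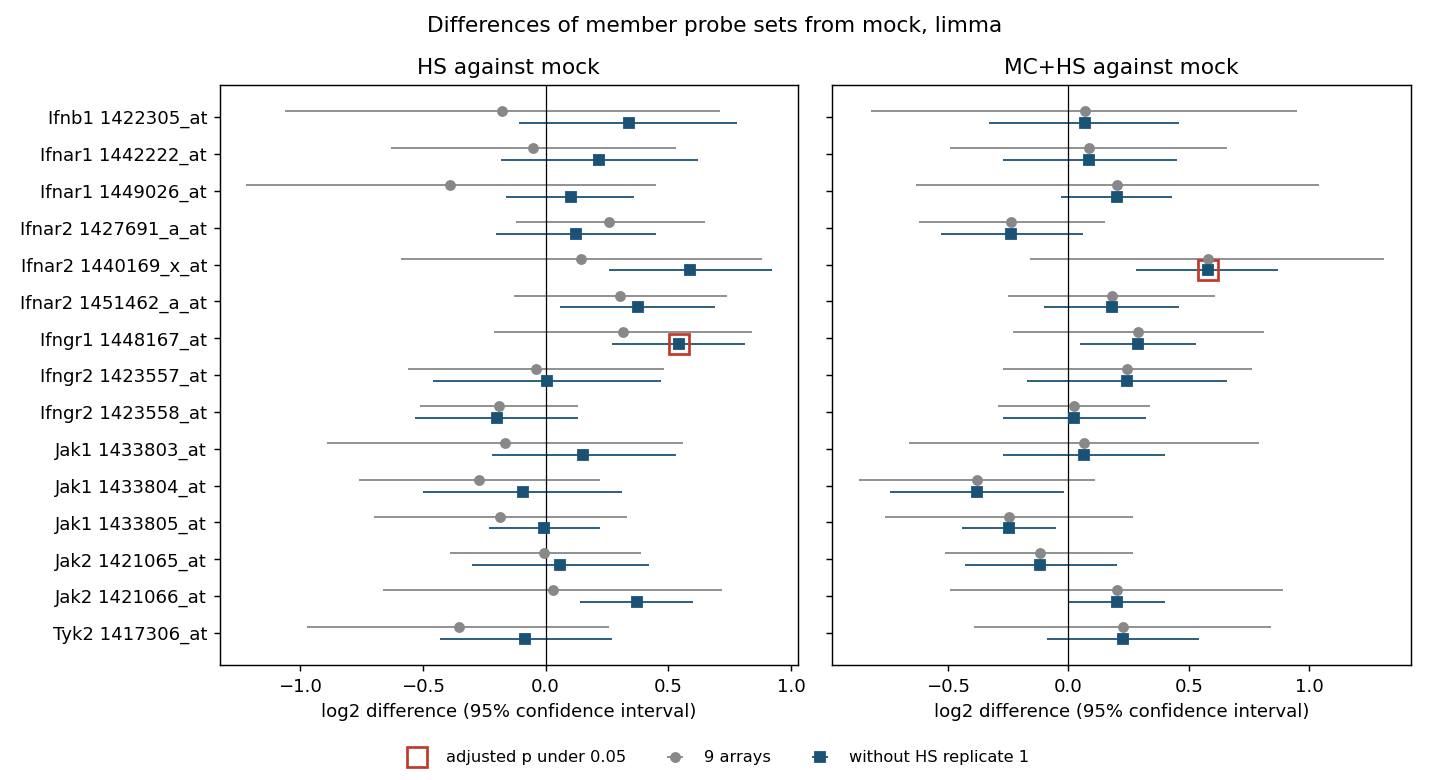
Log2 difference from mock of the 15 member probe sets that passed the filter, with 95% confidence intervals from limma, for HS (left) and MC+HS (right), with 9 arrays (grey) and without HS replicate 1 (blue). Red squares mark an adjusted p under 0.05, which Ifngr1 1448167_at reached in HS (0.54) and Ifnar2 1440169_x_at in MC+HS (0.58), both without HS replicate 1.

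Once HS replicate 1 was left out, 1 of 15 member probe sets (Ifngr1) was therefore higher in HS, where 2.97% of 27973 probe sets were higher and 3.32% changed in either direction. In MC+HS it was also 1 of 15 (Ifnar2 1440169_x_at), beside 2.51% higher and 3.34% in either direction. In MC+HS against HS 0 of 15 passed, beside 0.00357%. At an unadjusted p under 0.05 the counts were 4, 4 and 2 of 15, beside 3968, 3969 and 2140 of all 27973 probe sets. The members' median difference was 0.12 in HS and 0.09 in MC+HS, against 0.03 and -0.02 over all probe sets. The median interval then reached 0.325 log2 units in HS and 0.29 in MC+HS.

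Counts of probe sets whose groups did not overlap were read beside the share of all probe sets. With all arrays, 0 of 15 member probe sets had HS wholly above mock, beside 4.65% of all probe sets, and 0 wholly below, beside 10.1%. MC+HS lay wholly above mock for 4 of 15, which were Ifnar2 1440169_x_at, Ifngr1, Jak2 1421066_at and Tyk2 1417306_at, beside 8.79%, and wholly below for 1, Jak1 1433805_at, beside 9.84%. MC+HS lay wholly above HS for 2 of 15 (Ifngr2 1423558_at and Tyk2 1417306_at), beside 5.14%, and wholly below for 1 (Ifnar2 1427691_a_at), beside 2.88%. All 6 vector arrays were above all mock arrays for 0 of 15, beside 2.59%, and below for 0, beside 3.79%. Leaving out HS replicate 1, the remaining 5 vector arrays were above all mock arrays for 3 of 15 (Ifnar2 1440169_x_at, Ifngr1 and Jak2 1421066_at), beside 6.9%, and below for 0, beside 4.56%. Both vector groups were compared with the same mock arrays, so these comparisons are not independent of each other.

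Over the 8 arrays other than HS replicate 1, the genes whose centred log2 values ran most like those of Ifngr1 among 13224 genes were Bmp2k (Pearson r = 0.988), Gypc (0.984) and Hacd2 (0.983). For Ifnar2 1440169_x_at they were Mmp3 (0.99), a matrix-degrading protease, Esam (0.986), an endothelial adhesion molecule, and Erg (0.979), an endothelial transcription factor. These correlations describe arrays that share their groups, so any gene that differs between mock and vector arrays tends to rank high.

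The genes downstream of the receptors were higher in both vector groups. Of 30 type I interferon targets that passed the filter, 12 rose in HS, beside 0.893% of all 13331 genes, and 11 rose in MC+HS, beside 0.69%. None fell, beside 0.0375% and 0.0225% of all genes. The median target was 2.53 and 2.60 log2 units above mock, against -0.23 and 0.01 over all genes. Without HS replicate 1, 30 of 30 rose in each group, beside 3.82% and 3.25% of all genes, and again none fell, beside 0.393% and 0.431%. Without mock replicate 2, a fit added after its target values were seen, 17 of 30 rose in each group, beside 1.03% and 0.859%.

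Oas3, which makes the activator of the antiviral ribonuclease RNase L, had signals of 20.5, 40.5 and 47.2 in mock, 182, 347 and 386 in HS, and 237, 219 and 205 in MC+HS. It was below background on the 3 mock arrays and on HS replicate 1, and above it on the other 5 vector arrays. Since mock was not above background, only a lower bound on its change is given, the vector group's mean against the mock arrays' background level. Oas3 was at least 2.33-fold higher in HS without HS replicate 1, and at least 1.92-fold higher in MC+HS. With HS replicate 1 the figure for HS was 2.06-fold, which is no lower bound because Oas3 was below background on that array. The limma test of the measured difference, and not of this bound, gave adjusted p = 0.00454 in HS and 0.00782 in MC+HS. Oas3 passed the filter through vector arrays only. Its promoter, printed above, holds an ISRE match. Ifih1, the cytosolic sensor of double-stranded RNA, rose by 3.02 ± 0.31 and 2.63 ± 0.31, and Zbp1, a nucleic acid sensor, by 3.74 ± 0.49 and 3.31 ± 0.49. Oas2 and Oasl1, of the same family as Oas3, rose by 2.96 and 2.32 in HS and by 2.80 and 2.09 in MC+HS. Zbp1, at 63.5 and 19.4 units, and Oas2, at 75.4 and 97, were below background on mock replicates 1 and 3. The sizes of their rises thus rest partly on readings below background. Of the 30 type I targets, 22 were above background on mock replicate 1 and 22 on mock replicate 3.

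Of 21 interferon gamma targets, 9 rose in each vector group, beside 0.893% of all genes in HS and 0.69% in MC+HS. Without HS replicate 1, 15 rose in HS and 14 in MC+HS, beside 3.82% and 3.25%, and none fell in either fit. Many of these genes also respond to type I interferon, so the list is not specific to interferon gamma, and it shares Irf1 and Socs1 with the lists described next. The median was 2.30 in HS and 2.26 in MC+HS, and the median of all genes was -0.23 and 0.01. Cxcl9 and Socs1 were not above background on any mock array. With these genes set against the mock arrays' background level, as for Oas3, the median was 2.23 in both groups. Cxcl9, a chemokine that attracts T cells, had signals of 5.77, 23.0 and 4.55 in mock, 310, 469 and 520 in HS, and 147, 416 and 320 in MC+HS. All mock values were below background and all vector values above it. Cxcl9 was at least 2.95-fold higher in HS and at least 2.33-fold higher in MC+HS. Its measured difference, and not the bound, had a limma adjusted p = 0.00176 in HS and 0.00481 in MC+HS. Cxcl9 also passed the filter through vector arrays only. Iigp1, a GTPase that attacks the vacuoles of parasites, rose by 3.42 ± 0.33 and 2.95 ± 0.33, and Irgm1, a regulator of such GTPases, by 2.54 ± 0.30 and 2.29 ± 0.30. Gbp7, a guanylate-binding protein, rose by 2.74 ± 0.29 and 2.29 ± 0.29, and Tap1, a peptide transporter of antigen presentation, by 2.55 ± 0.35 and 2.99 ± 0.35. Thus, at 2 days, these targets were higher than in mock while Ifng and the 7 interferon alpha-type genes read here were at background on all 9 arrays. Ifnb1 was at background on 7 of 9 at the 95th percentile of the receptor probe sets and on 4 of 9 at the 90th.

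**Figure D4:**
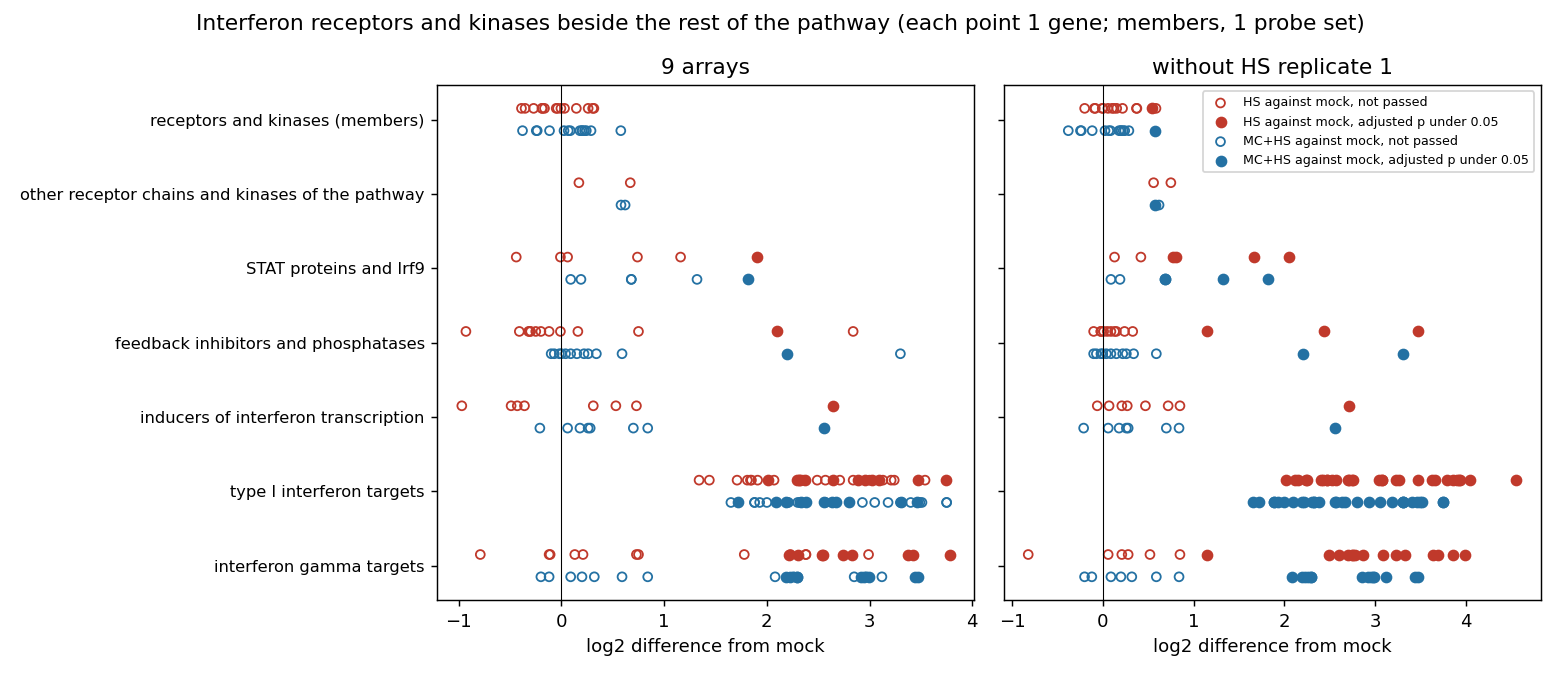
Log2 difference from mock of the receptor and kinase probe sets (top row) and of genes of each pathway list, in HS (red) and MC+HS (blue), with 9 arrays on the left and without HS replicate 1 on the right; filled points have an adjusted p under 0.05. The top row lies between -0.39 and 0.58 with 9 arrays, while the medians of the target lists lie between 2.26 and 2.60.

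Between the receptors and the targets stand the STAT proteins and Irf9, the DNA-binding partner of STATs in the type I complex. With all arrays 1 of 6 rose in each group, namely Irf9, beside 0.893% and 0.69% of all genes. It read 8.22, 9.41 and 8.47 in mock, 10.28, 10.71 and 10.80 in HS, and 10.59, 10.55 and 10.43 in MC+HS, a difference of 1.90 ± 0.32 (adjusted p = 0.0352) and 1.82 ± 0.32 (adjusted p = 0.0494). Without HS replicate 1, 4 of 6 rose in each group, beside 3.82% and 3.25% of all genes, which were Irf9, Stat2 (1.67 ± 0.19 and 1.32 ± 0.17), Stat3 (0.77 ± 0.14 and 0.68 ± 0.13) and Stat6 (0.81 ± 0.16 and 0.68 ± 0.14). Without mock replicate 2, 1 of 6 rose in each.

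Among 13 feedback inhibitors and phosphatases, 1 rose in each group, beside 0.893% and 0.69% of all genes, and the list's median difference was -0.20 in HS and 0.15 in MC+HS. That gene was Socs3, which blocks Janus kinases bound to cytokine receptors, with 2.10 ± 0.33 in HS (adjusted p = 0.0253) and 2.20 ± 0.33 in MC+HS (adjusted p = 0.026). Usp18, which displaces Jak1 from Ifnar2, had differences of 2.84 ± 0.62 (adjusted p = 0.109) and 3.30 ± 0.62 (adjusted p = 0.0613), and rose in both groups without HS replicate 1 (adjusted p = 0.00085 and 0.000672). Socs1, an inhibitor of the kinases at both interferon receptors, was not above background on any mock array and passed the filter through vector arrays only. Without HS replicate 1 it was at least 1.5-fold higher in HS. The limma test of its measured difference, without that array, gave adjusted p = 0.0157 in HS and did not pass in MC+HS (adjusted p = 0.179). Without mock replicate 2, 2 of 13 rose in each group, beside 1.03% and 0.859% of all genes. Usp18 is also counted among the type I targets.

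Of 8 measured inducers of interferon transcription, 1 rose in each group with and without HS replicate 1 and without mock replicate 2. The shares of all genes beside these were 0.893% and 0.69% with all arrays, 3.82% and 3.25% without HS replicate 1, and 1.03% and 0.859% without mock replicate 2. The gene was Irf7, the factor that drives the interferon alpha genes and is itself a type I target. Irf7 read 8.60, 10.18 and 8.86 in mock, 11.72, 11.75 and 12.09 in HS, and 11.77, 11.85 and 11.71 in MC+HS, with differences of 2.64 ± 0.39 (adjusted p = 0.0185) and 2.56 ± 0.39 (adjusted p = 0.0281). Irf1, Irf5, Irf8 and Rela, other factors that act on interferon genes, did not pass in any of these fits, with Irf1 nearest at 0.85 ± 0.23 in HS and 0.84 ± 0.21 in MC+HS without HS replicate 1 (adjusted p = 0.0886 and 0.0569). Of the other receptor chains and kinases of the family, 2 passed the filter. Jak3, the kinase of lymphocyte cytokine receptors, differed by 0.67 ± 0.25 in HS (adjusted p = 0.622) and 0.62 ± 0.25 in MC+HS (adjusted p = 0.906). Il10rb, a chain of the receptors for interferon lambda and interleukin 10, read 8.63, 8.55 and 8.25 in mock, 7.85, 9.04 and 9.04 in HS, and 9.03, 9.20 and 8.96 in MC+HS. It did not pass with all arrays, and without HS replicate 1 it rose in MC+HS by 0.58 ± 0.12 (adjusted p = 0.0261), with 0.56 ± 0.14 in HS (adjusted p = 0.0533).

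Markers of some other cells also differed from mock. None of those of neurons, striatal medium spiny neurons, oligodendrocytes, B cells or choroid plexus passed, with or without HS replicate 1. The summed signal of the choroid plexus markers was 1515 on mock replicate 3, against 13708 and 13982 on the other mock arrays. It ran from 2647 to 10514 on the vector arrays, and its part in the member values was not tested. Of 10 natural killer and T cell markers that passed the filter, Gzma and Gzmb, granule proteases, rose in each group, beside 0.893% and 0.69% of all genes, and Nkg7 as well without HS replicate 1, beside 3.82% and 3.25%. Gzma, Gzmb, Nkg7 and Klrd1 were not above background on any mock array, so their differences have no measured mock level under them. Nkg7 and Klrd1 were not above it on HS replicate 1 either. The others did not pass and had both signs, with Prf1 at -0.74 ± 0.37, Cd8a at -0.69 ± 0.48 and Klrd1 at 1.17 ± 0.29 in HS, and Cd4 at -0.42 ± 0.25 and Cd3e at -0.37 ± 0.36 in MC+HS. The summed scaled signal of the 15 markers on the array was 1196 to 1246 in mock, 2283 to 3717 in HS and 1851 to 3089 in MC+HS. Cd3d, Cd3g, Ncr1 and Tbx21 were above background on 0 of 9 arrays, and the part of these cells in the Ifng signal was not tested. Of 5 endothelial markers none passed with all arrays, and Cldn5 and Cdh5 rose in each group without HS replicate 1, beside 3.82% and 3.25% of all genes. Their sum was 2807 to 3317 in mock, 2449 on HS replicate 1, 5114 and 5879 on the other HS arrays, and 4583 to 5196 in MC+HS, and their part in the Ifngr1 and Ifnar2 differences was not tested.

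Of 5 monocyte and macrophage markers, 1 (Chil3) rose in each group, beside 0.893% of all genes in HS and 0.69% in MC+HS. Their sum was 1667 to 2946 in mock, 2401 to 3401 in HS and 2714 to 2860 in MC+HS. Of 4 neutrophil markers S100a8 and S100a9 rose in HS and S100a9 in MC+HS, beside the same shares of all genes. Chil3, S100a8 and S100a9 were not above background on any mock array or on HS replicate 1. The sizes of their rises were thus not measured and are not given. Of 5 microglia markers Gpr34 fell in HS, and Gpr34 and P2ry12 fell in MC+HS, beside 0.0375% and 0.0225% of all genes. The sum of the 5 was 8864 to 12110 in HS and 10699 to 13110 in MC+HS, against 11947 to 13757 in mock. Of 6 markers of plasmacytoid dendritic cells, a rich source of interferon alpha, none rose. Siglech, which microglia also make, fell in both groups without HS replicate 1, beside 0.393% and 0.431% of all genes. Ccr9 was above background on 0 of 9 arrays. Among 6 astrocyte markers none passed with all arrays. Without HS replicate 1 Gfap, Aldh1l1 and Aqp4 rose in HS and the first 2 in MC+HS, beside 3.82% and 3.25% of all genes. The part of these cells in the receptor and kinase values was not tested.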

How the data were processed

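Each array was an Affymetrix hybridization of RNA from 1 mouse. Per the submitters' processing notes, the deposited linear intensity values came from GCOS 1.4.0.036; no source says how they were summarised or scaled. Signals became log2(signal + 16), which understates changes of dim genes, and arrays were moved to a common median. A probe set was tested if at least 3 arrays held it above their 40th percentile (28257 of 45037, after 64 controls). Group differences came from limma 3.58.1 (R 4.3.3, lmFit, eBayes with trend) on all 9 arrays, two-sided, Benjamini-Hochberg over all probe sets tested, called under 0.05. Errors after ± are standard errors. The fit was tested on simulated data with the spread of the arrays other than HS replicate 1, and so not with the spread of all 9 arrays. A gene that is no member was read by its brightest probe set on average. Named were every member and measured ligand, up to 5 genes per pathway list with the smallest p, and the 3 genes most like each called member. Deviations of same-numbered mice from their group means had correlations of -0.168 to 0.287. The highest were mock with MC+HS replicate 3 (0.287) and replicate 1 (0.261). Pairs of unlike number ran from -0.318 to 0.159. Members, lists and fits were chosen with earlier results of these data known. Motifs were searched with Python 3.11.15.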

Additional observations from a re-analysis of the deposited data

How the results depend on the processing

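The counts below are probe sets with an adjusted p under 0.05, and the differences are log2 values that were not called unless stated. Among the members' values, under settings that leave out no mouse, 406 kept direction and side of the threshold, 33 turned direction, and 4 calls and 2 counts of calls were gained. HS against mock gave 136 with a 60th percentile filter, 1866 with array quality weights (gene by gene, since the REML form did not converge) and 15 with only the arrays compared. MC+HS against mock gave 69 without centring, 1629 with weights, 727 with only the arrays compared and 95 with a replicate block, and MC+HS against HS gave 170 with weights. With the replicate block HS against mock gave 148. Weights called 3 of 15 members in HS, beside 1866 of all 28257 probe sets, and 1 of 15 in MC+HS, beside 1629 of 28257. In HS these were Ifngr1 (0.47, adjusted p = 0.0111), Ifnar2 1440169_x_at (0.54, adjusted p = 0.018) and Jak2 1421066_at (0.36, adjusted p = 0.0362). In MC+HS it was Ifnar2 1440169_x_at (0.59, adjusted p = 0.0127). The adjusted p of Ifngr1 in HS ran from 0.0111 to 1 over its settings, and that of Ifnar2 1440169_x_at in MC+HS from 0.0127 to 1.

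The median difference of all probe sets in HS against mock moved from -0.21 to 0.09 without centring and to -0.06 with quantile normalization. In HS against mock, no centring turned Ifnb1 to 0.12, Ifnar1 1442222_at to 0.25, Ifngr2 1423557_at to 0.26 and 1423558_at to 0.11, Jak1 1433803_at to 0.14, 1433804_at to 0.03 and 1433805_at to 0.12, and Jak2 1421065_at to 0.3. Quantile normalization turned Ifnar2 1440169_x_at to -0.08, Ifngr2 1423557_at to 0.24, Jak1 1433803_at to 0.19 and 1433805_at to 0.18, and Jak2 1421065_at to 0.19, and a pseudocount of 64 turned the last to 0.02. Weights turned Ifnb1 to 0.31, Ifnar1 1442222_at to 0.24 and 1449026_at to 0.08, Ifngr2 1423557_at to 0.07, and Jak1 1433803_at and Jak2 1421065_at to 0.06; in MC+HS against mock they turned Jak1 1433803_at to -0.11.

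In MC+HS against HS, no centring turned Ifnb1 to -0.03, Ifnar1 1442222_at to -0.14, Ifngr2 1423558_at to -0.06, Jak1 1433803_at to -0.04 and Jak2 1421066_at to -0.1. Quantile normalization turned Ifngr2 1423557_at to -0.04, Jak1 1433803_at to -0.14 and Jak2 1421066_at to -0.21. Weights turned Ifnb1 to -0.19, Ifnar1 1442222_at to -0.09, Jak1 1433803_at to -0.16 and Jak2 1421066_at to -0.14. The cause of these turns was not tested.

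Leaving out each mouse in turn gave 67 to 930 called in HS against mock, highest without HS replicate 1 and lowest without HS replicate 3, 10 to 934 in MC+HS against mock and 0 to 1 in MC+HS against HS, with 0 to 1 members called in each comparison with mock. Without HS replicate 2, HS replicate 3 or MC+HS replicate 2, Ifnb1 did not pass the filter. The ranges given here for Ifnb1 therefore leave out those fits. Ranges that crossed 0 in HS against mock were -0.27 to 0.34 for Ifnb1, -0.19 to 0.22 and -0.67 to 0.1 for Ifnar1 1442222_at and 1449026_at, -0.11 to 0.59 for Ifnar2 1440169_x_at, -0.17 to 0.17 for Ifngr2 1423557_at, -0.37 to 0.15 for Jak1 1433803_at, and -0.16 to 0.11 and -0.18 to 0.37 for Jak2 1421065_at and 1421066_at. In MC+HS against mock they were -0.03 to 0.14 for Ifnb1, -0.11 to 0.19 for Ifnar1 1442222_at, -0.06 to 0.12 for Ifngr2 1423558_at and -0.11 to 0.15 for Jak1 1433803_at, while Jak2 1421065_at ran from -0.27 to 0. In MC+HS against HS they were -0.27 to 0.32 for Ifnb1, -0.13 to 0.28 for Ifnar1 1442222_at, -0.01 to 0.69 for Ifnar2 1440169_x_at, -0.26 to 0.1 for Ifngr1, -0.09 to 0.43, -0.29 to 0.05 and -0.24 to 0.04 for Jak1 1433803_at, 1433804_at and 1433805_at, and -0.17 to 0.38 for Jak2 1421066_at. The 3 mice per group and the unknown detection limit of the signals bound all member values.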
